A study of Mus musculus with 9 samples.

Results

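The genes described here are 8 receptors through which neutrophils sense attractants: Cxcr2, Cxcr4, Ccr1, Fpr1, Fpr2, C5ar1, Ltb4r1 and Ptafr. They were taken by symbol from the table of 23284 gene symbols given for each sample, and all 8 were found. Their RNA levels were measured by RNA-sequencing in 9 samples of myeloid-derived suppressor cells (MDSCs), the immature myeloid cells that expand in tumour-bearing hosts and restrain immune responses. The cells came from the spleens of mice carrying a spindle cell tumour (SCT) under the skin, a tumour line that itself derives from a p16-deficient mouse. There were 3 samples each of polymorphonuclear cells from wild-type mice (PMN-MDSCs), monocytic cells from wild-type mice (WT Mo-MDSCs) and monocytic cells from mice lacking both p16 and p21 (DKO Mo-MDSCs), 2 inhibitors of cyclin-dependent kinases encoded by Cdkn2a and Cdkn1a. PMN-MDSCs from DKO mice were not analysed here.

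All mice bore SCTs, and the labels name no other treatment. The labels give the strain as C57BL/6J for both WT groups and as C57BL/6 for the DKO group, so that genotype and substrain label cannot be told apart. The labelled age of 3 weeks equals the time from inoculation to collection in the study's methods, which describe adult mice. The cells were separated magnetically, PMN-MDSCs as Ly6G+ cells and Mo-MDSCs as Gr-1+ cells of the Ly6G- remainder. The deletion is present in the whole animal, and whether mice were pooled within a sample is not given in the sources used here. The spread between samples, on which all p-values rest, may therefore be partly technical.

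Chemoattractant receptors cross the membrane as bundles of helices and signal through Gi proteins, whose released subunits activate phosphoinositide 3-kinase and the small GTPase Rac and turn the cell towards the source. CXCR2 binds the neutrophil-attracting CXC chemokines and draws mature neutrophils out of the bone marrow, whereas CXCR4 binds CXCL12 and holds them there. CCR1 binds inflammatory CC chemokines, FPR1 and FPR2 bind formylated peptides released by bacteria and mitochondria, C5AR1 binds the complement fragment C5a, BLT1 (encoded by Ltb4r1) binds leukotriene B4, and PTAFR binds platelet-activating factor. Monocytes carry several of these receptors as well, but rely largely on CCR2 and CX3CR1.

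The 8 genes lie on 6 chromosomes of the mouse genome (GRCm38, the build named mm10 in the labels). Cxcr2 spans positions 74153989 to 74161246 of chromosome 1 on the plus strand, and Cxcr4 lies on the same chromosome 54.4 megabases away. Fpr1 (17876471 to 17883940, minus strand) and Fpr2 (17887824 to 17893952, plus strand) are neighbours on chromosome 17 with 3883 bases between them, and point away from each other. Ltb4r1 (55765962 to 55768494, plus strand of chromosome 14) begins 823 bases after the end of Ltb4r2, the gene of the second leukotriene B4 receptor. Ccr1 lies on chromosome 9, C5ar1 on chromosome 7 and Ptafr on chromosome 4. The formyl peptide receptor genes are 11.2 megabases from the deleted Cdkn1a gene, and Ptafr is 43.3 megabases from Cdkn2a.

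The 150 bases before the RefSeq start (GRCm38.p6) are shown for the genes with the largest and the smallest difference between the subsets, Cxcr2 and Ltb4r1, and for the divergent neighbours Fpr1 and Fpr2. Each is read 5′ to 3′ on the strand of its gene, from chr1:74153844-74153993 (plus), chr14:55765812-55765961 (plus), chr17:17883940-17884089 (minus) and chr17:17887674-17887823 (plus). Capitals mark a match, on either strand, to the core GAGGAA bound by PU.1 or to the pattern TTNNGNAA bound by C/EBP proteins, which are the main transcription factors of myeloid cells.
Cxcr2: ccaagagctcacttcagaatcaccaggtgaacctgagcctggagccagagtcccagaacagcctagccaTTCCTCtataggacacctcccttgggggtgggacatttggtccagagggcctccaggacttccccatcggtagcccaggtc
Ltb4r1: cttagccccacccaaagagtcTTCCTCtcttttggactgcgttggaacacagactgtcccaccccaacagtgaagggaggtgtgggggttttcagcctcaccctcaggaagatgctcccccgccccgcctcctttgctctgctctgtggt
Fpr1: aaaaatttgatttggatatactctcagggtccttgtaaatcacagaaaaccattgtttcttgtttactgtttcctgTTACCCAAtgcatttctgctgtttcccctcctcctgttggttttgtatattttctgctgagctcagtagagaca
Fpr2: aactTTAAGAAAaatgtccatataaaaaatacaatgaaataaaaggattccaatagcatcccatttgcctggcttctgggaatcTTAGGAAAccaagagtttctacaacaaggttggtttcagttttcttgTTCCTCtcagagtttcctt
The bases printed before Cxcr2 and Ltb4r1 each hold 1 match to the PU.1 core and none to the C/EBP pattern, at positions -81 and -129 from the start. Fpr1 has 1 C/EBP match in the stretch shown, at position -74, and Fpr2 has both kinds. Over 250 bases upstream, 5 of the 8 genes held the PU.1 core, against 23.3% of 32851 mouse promoters, and 5 of the 8 held the C/EBP pattern, against 36.8%. The overlapping matches before Ccr1, at -129 for PU.1 and -131 for C/EBP, were counted under both patterns. Such matches describe letters only, and no binding was measured.

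Levels are given as FPKM, fragments normalised for transcript length and for library size, which allows levels to be compared between genes. The values had been scaled by the study's authors, with upper quartiles of 22.0 to 24.5 FPKM in all samples, and the depth in reads is unknown. Relative depth, read from the steps of low values, ranged from 0.809 to 1.31, and no sample duplicated another. The neutrophil markers were highest in PMN-MDSCs, with summed levels of 100040 to 233160 FPKM, against 17909 to 61887 in WT Mo-MDSCs and only 7066 to 17135 in the DKO group. Most of the sum came from S100a8 and S100a9 in each group. The test described below called 6 of the 9 markers present lower in WT Mo-MDSCs. Of 7 monocyte markers, 6 were higher in WT Mo-MDSCs, led by F13a1 (mean 174 against 0.933 FPKM). Ly6g, the antigen of the separation, was not analysed here. Every sample also carried transcripts of other spleen cells, with summed levels of 969 to 1568 FPKM for 4 B cell markers, 1209 to 2868 for 4 erythroid markers and 2199 to 4064 for 4 red-pulp macrophage markers. T cell, NK cell, platelet and dendritic cell markers summed to at most 8.62 FPKM, and those of eosinophils and basophils to 10.5 to 37.6 FPKM, mostly from Prg2.

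The deleted genes were at no more than 8.52 FPKM in any sample, but Cdkn1a differed between the subsets. Cdkn2a was at 0.355, 1.47 and 1.36 FPKM in PMN-MDSCs, at 0.718, 0.772 and 0.432 FPKM in WT Mo-MDSCs, and at 0.258, 0.586 and 0 FPKM with the genes deleted. Cdkn1a was at 2.95, 1.83 and 2.40 FPKM in PMN-MDSCs, 8.18, 6.46 and 8.04 in WT Mo-MDSCs, against 5.55, 8.52 and 6.00 in the DKO samples, and the last 2 groups overlapped. The parts of the genes that were removed are not given in the sources used here, so these gene-level values neither bear out the genotype labels nor go against them.

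In PMN-MDSCs, Cxcr2 was the most abundant of the 8 receptors and stood apart from the rest. Its mean of 713 FPKM placed it at rank 167 of all genes, and no PMN-MDSC sample had less Cxcr2 than it had of any other receptor. Cxcr4 (mean 253 FPKM), Fpr2 (245), Ccr1 (201), C5ar1 (199) and Fpr1 (197) followed with overlapping ranges. Ptafr (75.5 FPKM) and Ltb4r1 (70.5) came last, apart from Fpr1 but not from each other.

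**Figure D1:**
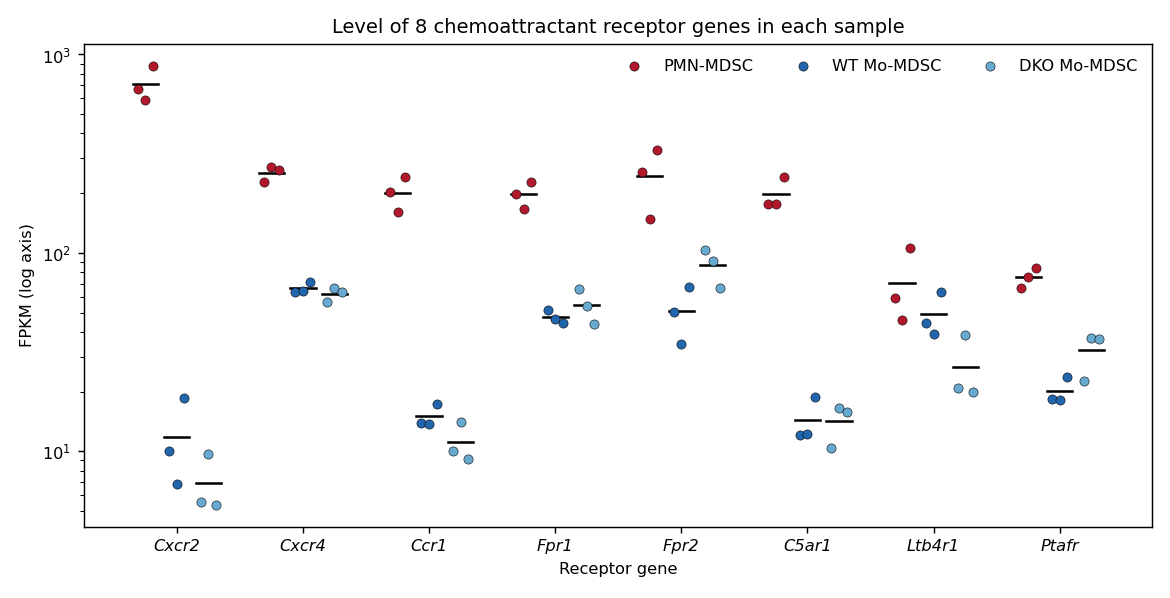
FPKM (log axis) of the 8 receptor genes in each of the 9 samples, with replicates 1 to 3 from left to right in each group and a line at the group mean (n = 3). PMN-MDSCs lie above both Mo-MDSC groups for 7 of the 8 genes, with Cxcr2 furthest apart, while Ltb4r1 overlaps between PMN-MDSCs and WT Mo-MDSCs.

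The order was different in Mo-MDSCs. In WT Mo-MDSCs it ran Cxcr4 (66.4 FPKM), Fpr2 (50.7), Ltb4r1 (48.9), Fpr1 (47.4), Ptafr (20.1), Ccr1 (15.0), C5ar1 (14.4) and Cxcr2 (11.8), and neighbours were separate only between Fpr1 and Ptafr and between Ptafr and Ccr1. Cxcr2 was thus the lowest of the receptors here, at rank 6203 of all genes. In DKO Mo-MDSCs the order was Fpr2 (87.1 FPKM), Cxcr4 (62.2), Fpr1 (54.7), Ptafr (32.3), Ltb4r1 (26.5), C5ar1 (14.2), Ccr1 (11.1) and Cxcr2 (6.89), with separate neighbours only between Fpr1 and Ptafr and between Ltb4r1 and C5ar1. The first Mo-MDSC position was held by Cxcr4 in WT and by Fpr2 in DKO cells, with Cxcr4 above Fpr2 in 3 of 3 WT samples and Fpr2 above Cxcr4 in 3 of 3 DKO samples, although the ranges of the genes overlapped within both groups.

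As a share of the summed level of the 8 genes, Cxcr2 made up 36.4% ± 0.456 (SD, n = 3) in PMN-MDSCs, 4.15% ± 1.45 in WT Mo-MDSCs and, with the genes deleted, 2.30% ± 0.571. Ltb4r1 had its smallest share in PMN-MDSCs, with 3.49% ± 0.878 in PMN-MDSCs, 17.6% ± 1.63 in WT Mo-MDSCs and, for the DKO group, 8.82% ± 2.56. Fpr2 took 12.3% ± 2.74, 18.1% ± 3.11 and 29.5% ± 4.99 in the same order. The sum itself was 1633 to 2368 FPKM in PMN-MDSCs, 236 to 324 FPKM in WT Mo-MDSCs and 261.2 to 328.5 FPKM in the DKO group, so that the Mo-MDSC groups overlapped.

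**Figure D2:**
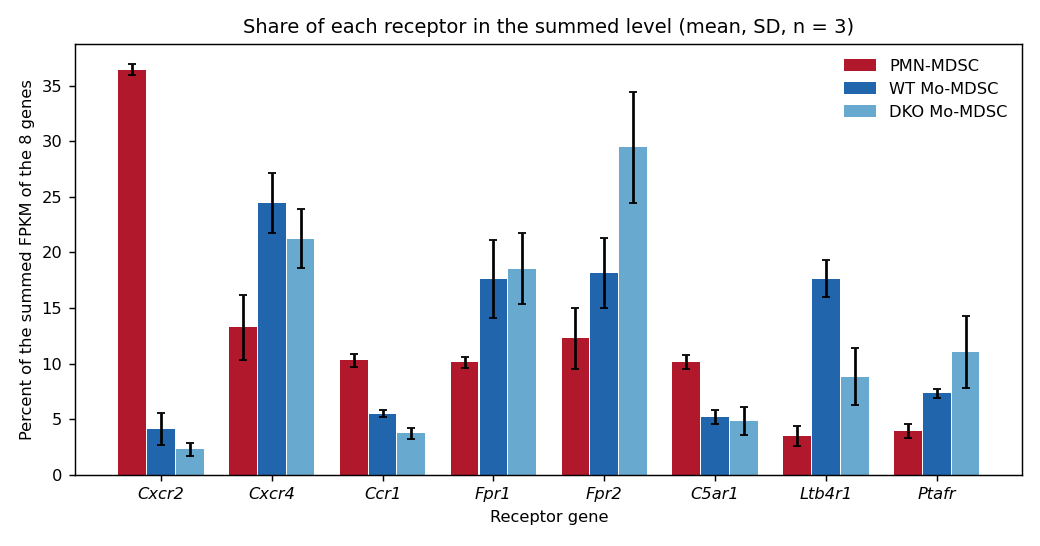
Percent of the summed FPKM of the 8 receptors contributed by each gene, as bars from 0 at the mean of 3 samples with SD as error bars, for the 3 groups. Cxcr2 fills 36.4% of the PMN-MDSC sum and 4.15% of the WT Mo-MDSC sum, whereas Ltb4r1 fills 3.49% and 17.6%.

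The first comparison asked which receptors distinguish the monocytic from the polymorphonuclear subset in WT mice. The chemokine receptors Cxcr2, Cxcr4 and Ccr1, the formyl peptide receptors Fpr1 and Fpr2, the C5a receptor C5ar1 and the platelet-activating factor receptor Ptafr were all lower in WT Mo-MDSCs, by 3.76 to 64.1 times. The leukotriene B4 receptor Ltb4r1 did not pass the test, which ignored replicate numbers, but passed it with replicates blocked by number. The test was limma on log2(FPKM + 0.1), for genes that reached 1 FPKM in 3 or more of 6 samples, a scale that understates the change of low genes, and called at a Benjamini-Hochberg adjusted p below 0.05 over all 11491 genes. All 8 receptors passed the filter. Of all genes tested 20.6% were called lower, against 7 of the 8 receptors, and 26.4% were lower with no overlap between the groups, again against 7 of the 8. The median log2 fold change was -2.15 over the 8 receptors and 0.0099 over all genes. In bulk samples such as these, fewer cells of a type and less RNA per cell cannot be told apart.

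Cxcr2 was at 673, 590.4 and 875 FPKM in PMN-MDSC replicates 1 to 3, and at 10.0, 6.87 and 18.6 FPKM in WT Mo-MDSCs. The groups were far apart, and the highest WT Mo-MDSC sample was replicate 3. The log2 fold change was -6.00 (SE 0.343, 95% interval -6.81 to -5.19, adjusted p = 3.2e-05 by limma), which is 64.1 times lower. In the exact permutation test of a single gene the smallest p that 3 against 3 samples can give is 0.1, and Cxcr2 reached it (p = 0.1, two-sided). WT Mo-MDSCs kept 1.66% of the PMN-MDSC mean.

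Cxcr4, the receptor that retains neutrophils in the marrow, differed less. It was at 227, 269.6 and 261 FPKM in PMN-MDSCs and at 63.4, 64.5 and 71.2 FPKM in WT Mo-MDSCs, with little spread within either group. The log2 fold change was -1.93 (SE 0.0934, adjusted p = 1.9e-05), or 3.80 times lower. The balance of the pair was therefore read within each sample, where scaling has no effect. The log2 ratio of Cxcr2 to Cxcr4 was 1.57, 1.13 and 1.74 in PMN-MDSCs and -2.65, -3.21 and -1.93 in WT Mo-MDSCs. The sign was opposite in the 2 subsets in every sample, and the means differed by -4.08 (exact two-sided permutation p = 0.1, the smallest possible).

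Ccr1 was at 203, 160.0 and 239.9 FPKM in PMN-MDSCs and at 14.0, 13.7 and 17.3 FPKM in WT Mo-MDSCs, and C5ar1 was at 177, 176 and 242 FPKM against 12.1, 12.3 and 18.9 FPKM. Both receptors, one for CC chemokines and the other for complement, were separated without overlap and by similar amounts. Their log2 fold changes were -3.72 (SE 0.163, adjusted p = 1.2e-05) for Ccr1 and -3.79 (SE 0.204, adjusted p = 2.6e-05) for C5ar1, or 13.2 and 13.8 times lower. They had the second closest pair of profiles over the 9 samples among the 8 receptors, with a root mean square difference of 0.285 on the log2 scale, after Cxcr4 and Fpr1 with 0.269.

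Both formyl peptide receptors were lower as well. Fpr1 was at 197, 166 and 228 FPKM in PMN-MDSCs and at 51.4, 46.5 and 44.1 FPKM in WT Mo-MDSCs. Fpr2 was at 256, 149 and 330.9 FPKM against 50.3, 34.6 and 67.2 FPKM, with a wider spread in both groups than Fpr1 but no overlap. Fpr1 was 4.13 times lower (log2 fold change -2.05, SE 0.126, adjusted p = 4.3e-05) and Fpr2 4.75 times lower (-2.25, SE 0.335, adjusted p = 0.00207). The neighbours did not separate from each other: the within-sample log2 ratio of Fpr1 to Fpr2 was -0.375, 0.162 and -0.539 in PMN-MDSCs and 0.033, 0.425 and -0.607 in WT Mo-MDSCs, with a mean difference of 0.201 (exact permutation p = 0.7). This difference changed sign to -0.036 without WT Mo-MDSC replicate 2. In both groups the ratio was highest in replicate 2 and lowest in replicate 3. How reads shared by related genes such as these were assigned is not given in the sources used here.

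Of the receptors for lipid mediators, Ptafr passed the test and Ltb4r1 did not. Ptafr was at 66.7, 75.9 and 84.1 FPKM in PMN-MDSCs and at 18.3, 18.2 and 23.8 FPKM in WT Mo-MDSCs, 3.76 times lower (log2 fold change -1.91, SE 0.135, adjusted p = 7.3e-05). Ltb4r1 was at 59.5, 45.8 and 106 FPKM in PMN-MDSCs and at 44.5, 39.0 and 63.3 FPKM in WT Mo-MDSCs. The groups overlapped, since WT Mo-MDSC replicate 3 exceeded the first 2 PMN-MDSC samples, and the log2 fold change was -0.46 (SE 0.317, 95% interval -1.21 to 0.28, adjusted p = 0.288). The interval excludes changes of the size seen in the other 7 receptors. Within each replicate number, however, Ltb4r1 was lower in the WT Mo-MDSC sample in 3 of 3 pairs, and once replicates were blocked by number it passed the test (SE 0.0979, adjusted p = 0.00885), which brought the count to 8 of 8. The block also raised the count of lower genes in other lists, to 14 of 17 for Gi signalling to motility and 9 of 9 neutrophil markers. The share of all genes lower with the block is not given here, and the 20.6% above is without it. The size of the Ltb4r1 difference depended on scaling and on single samples. It was -0.022 with equal totals (adjusted p = 0.934), where the median of all genes also rose, from 0.0099 to 0.449. With quantile normalization it was -0.22, and that median was 0.057. It was -0.12 without PMN-MDSC replicate 3 and -0.73 without PMN-MDSC replicate 2. The blocked call therefore holds for the values as deposited.

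**Figure D3:**
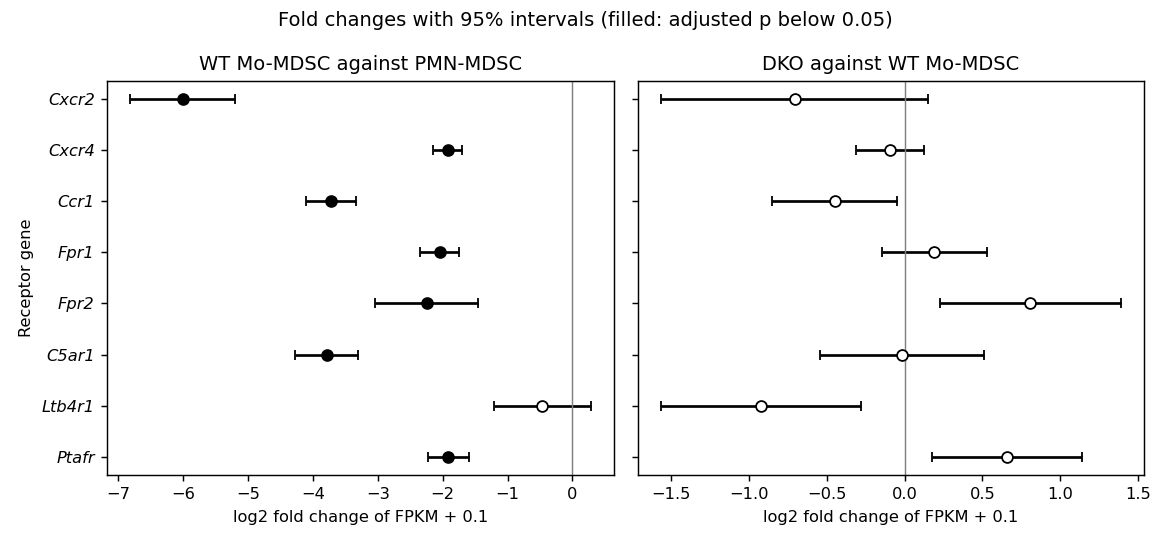
Log2 fold changes of FPKM + 0.1 for the 8 receptors with 95% intervals from limma, for WT Mo-MDSCs against PMN-MDSCs on the left and DKO against WT Mo-MDSCs on the right (the axes differ). Filled points have an adjusted p below 0.05. 7 receptors are filled on the left, from -6.00 for Cxcr2 to -1.91 for Ptafr, and none on the right.

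Neutrophil transcripts other than the receptors moved with this comparison. As a percentage of the PMN-MDSC mean, WT Mo-MDSCs held 1.66% of Cxcr2, which lay near the 2.07% of Retnlg, a product of mature neutrophils, and the 1.96% of Mmp9, the gelatinase of late granules. Ccr1 (7.47%) and C5ar1 (7.26%) lay near Csf3r (5.31%), the receptor for the growth factor of neutrophils. Cxcr4 (26.3%), Ptafr (26.6%), Fpr1 (24.0%) and Fpr2 (20.7%) were kept at higher percentages. Ltb4r1 stood at 69.5%. Of the 9 neutrophil markers, the 6 called lower ranged from 1.96% to 21.1%, and the other 3, among them Ltf of the specific granules, from 59.3% to 74.5%. These 3 did not pass the unblocked test and passed it when replicates were blocked by number, as Ltb4r1 did. With equal totals their log2 fold changes were 0.043 for Camp, -0.0023 for Ngp and -0.25 for Ltf, none of them called. The median of all genes was 0.449 in that setting, against 0.0099 as deposited. The same 6 markers were lower with equal totals, but only 4 with quantile normalization, where S100a8 (-0.29) and S100a9 (-0.20) were not called. Quantile normalization gives equal ranks equal values in every sample, so it can hide differences of the most abundant genes. As deposited, S100a8 (-2.34) and S100a9 (-2.38) were called lower, and neither overlapped between the groups. Replicate 3 had the most Ltf in both groups (3205 FPKM in PMN-MDSCs and 1856 FPKM in WT Mo-MDSCs), and 7 of the 8 receptors were highest in replicate 3 in each of them. Without these 2 samples the same 7 receptors were called, with a log2 fold change of -6.23 for Cxcr2 and -0.32 for Ltb4r1. The markers of other spleen cells also differed, with summed levels of 1377 to 1568 FPKM in PMN-MDSCs and 969 to 1098 FPKM in WT Mo-MDSCs for B cells, and of 3437 to 4064 against 2199 to 2810 FPKM for red-pulp macrophages. Of these, 2 of 4 and 3 of 4 were called lower in WT Mo-MDSCs, and 3 of 4 of each kind with replicates blocked by number. None was lower with equal totals or quantile normalization, under both of which 1 B cell marker was higher. The part of other cells in the receptor differences was not tested.

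The second comparison asked whether loss of p16 and p21 alters these receptors in Mo-MDSCs. The values of Fpr2 and Ptafr were higher, and those of Ltb4r1, Cxcr2 and Ccr1 lower, in DKO Mo-MDSCs, but 0 of the 8 receptors passed the adjusted threshold. By limma, 0.0873% of the 11451 genes tested were called lower and 0.166% higher, and 1719 genes had an unadjusted p below 0.05. With the unadjusted thresholds of the study (fold change below 0.75 with p below 0.05, and the reciprocal fold for higher genes) 4 receptors were selected. Ccr1 and Ltb4r1 were then lower, where 4.43% of all genes were, and Fpr2 and Ptafr higher, where 2.57% of all genes were. The median log2 fold change was -0.055 over the 8 receptors and -0.018 over all genes. The 3 WT Mo-MDSC samples served in both comparisons.

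Ltb4r1 was at 44.5, 39.0 and 63.3 FPKM in WT Mo-MDSCs and at 20.8, 38.6 and 20.0 FPKM in DKO Mo-MDSCs. It was the only receptor whose groups did not overlap, although DKO replicate 2 lay just under the lowest WT sample, and 12.9% of all genes were lower without overlap. The log2 fold change was -0.92 (SE 0.276, 95% interval -1.56 to -0.28, adjusted p = 0.218 by limma, exact permutation p = 0.1). DKO Mo-MDSCs held 37.6% of the PMN-MDSC mean of this gene, against 69.5% in WT Mo-MDSCs.

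Fpr2 was at 50.3, 34.6 and 67.2 FPKM in WT Mo-MDSCs and at 103, 91.2 and 66.7 FPKM in DKO Mo-MDSCs, and the third samples of the groups were alike. The log2 fold change was 0.81 (SE 0.251, 95% interval 0.22 to 1.39, adjusted p = 0.228, exact permutation p = 0.2). Ptafr was at 18.3, 18.2 and 23.8 FPKM against 22.6, 37.2 and 37.0 FPKM, with DKO replicate 1 inside the WT range, and its log2 fold change was 0.66 (SE 0.206, 95% interval 0.18 to 1.14, adjusted p = 0.228, exact permutation p = 0.2). None of the receptors was higher in DKO cells without overlap, whereas 7.96% of all genes were. For Fpr1, the neighbour of Fpr2, the values were 51.4, 46.5 and 44.1 FPKM in WT and 65.7, 54.3 and 44.1 FPKM in DKO Mo-MDSCs, and the log2 fold change was 0.19 (95% interval -0.15 to 0.53, adjusted p = 0.563). The log2 ratio of Fpr1 to Fpr2 was -0.656, -0.748 and -0.596 in DKO samples against a mean of -0.050 in WT samples, a difference of -0.617 (exact permutation p = 0.2). It was -0.380 without WT Mo-MDSC replicate 2 and -0.895 without WT Mo-MDSC replicate 3.

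Cxcr2 was at 10.0, 6.87 and 18.6 FPKM in WT Mo-MDSCs and at 5.58, 9.71 and 5.37 FPKM in DKO Mo-MDSCs. The groups overlapped, and the log2 fold change was -0.70 (SE 0.368, 95% interval -1.56 to 0.15, adjusted p = 0.406). WT Mo-MDSC replicate 3 set much of it, and without that sample the value was -0.32. The log2 ratio of Cxcr2 to Cxcr4 in DKO samples was -3.31, -2.77 and -3.53, which differed from WT by -0.609 (exact permutation p = 0.2) and by -0.274 without WT Mo-MDSC replicate 3. Ccr1 was at 14.0, 13.7 and 17.3 FPKM in WT and 10.1, 14.1 and 9.18 FPKM in DKO Mo-MDSCs, a log2 fold change of -0.45 (95% interval -0.85 to -0.045, adjusted p = 0.297).

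Cxcr4 and C5ar1 showed the smallest differences. Cxcr4 was at 63.4, 64.5 and 71.2 FPKM in WT and 56.4, 66.9 and 63.2 FPKM in DKO Mo-MDSCs, and the 95% interval of its log2 fold change (-0.096) ran from -0.31 to 0.12. C5ar1 was at 12.1, 12.3 and 18.9 FPKM in WT and 10.4, 16.5 and 15.8 FPKM in DKO Mo-MDSCs, with an interval from -0.54 to 0.51 around -0.015. Changes inside these bounds could not be told from none with 3 samples a group. The sign of both depended on the scaling of the samples, and each was above 0 when all samples were set to the same total. The median of all genes was then 0.138 as well, against -0.018 as deposited.

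The neutrophil markers were also lower in sum in DKO Mo-MDSCs, at 7066 to 17135 FPKM against 17909 to 61887 in WT Mo-MDSCs. Most of the sum came from S100a8 (mean 13934 FPKM in WT and 4560 in DKO cells) and S100a9 (14405 and 4874). None of the 9 markers passed the adjusted threshold, but 6 were lower and 1 higher by the study's thresholds. The median log2 fold change of the 9 was -1.41. Ltf was at 865, 575 and 1856 FPKM in WT and at 348, 544 and 261 FPKM in DKO Mo-MDSCs. In DKO cells 6 of the 8 receptors, as well as Ltf, were highest in replicate 2, and Fpr1 and Fpr2 were highest in replicate 1. The 7 monocyte markers were lower in sum too, at 1535 to 1697 FPKM against 1872 to 2094 FPKM in WT cells, and 4 of them met the study's thresholds. By the same thresholds 2 of 3 T cell markers, 1 of 4 red-pulp macrophage markers and the 1 platelet marker tested were higher, and 1 of 2 dendritic cell markers was lower. The part of these markers in the receptor values was not tested.

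The genes with the profile most like that of each receptor were sought among 11725 genes over the 9 samples, by the root mean square difference of centred log2 values. For Cxcr2 they were Mmp9 (0.216), Il1f9 (0.275), an interleukin-1 family cytokine, and Nlrp12 (0.292). Mmp9 was at 929, 965 and 1293 FPKM in PMN-MDSCs, 15.5, 15.3 and 31.8 FPKM in WT Mo-MDSCs, and 7.72, 18.9 and 8.00 FPKM in the DKO samples, and like Cxcr2 was highest in replicate 3 of both WT groups and in replicate 2 of the DKO group. Ccr1 was nearest to Mxd1 (0.136), a repressor of the MYC network, Tnfsf14 (0.153) and Ccdc80 (0.190), and C5ar1 also had Mxd1 first (0.207), before Phospho1 (0.247) and the glucose transporter Slc2a3 (0.255). Cxcr4 had the closest neighbours of all, Myadm (0.0872), 9530077C05Rik (0.101) and Cd300lb (0.107). Nlrp12, Ccdc80 and 9530077C05Rik had means under 1 FPKM in both Mo-MDSC groups, where the added 0.1 FPKM weighs more on the profile.

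**Figure D4:**
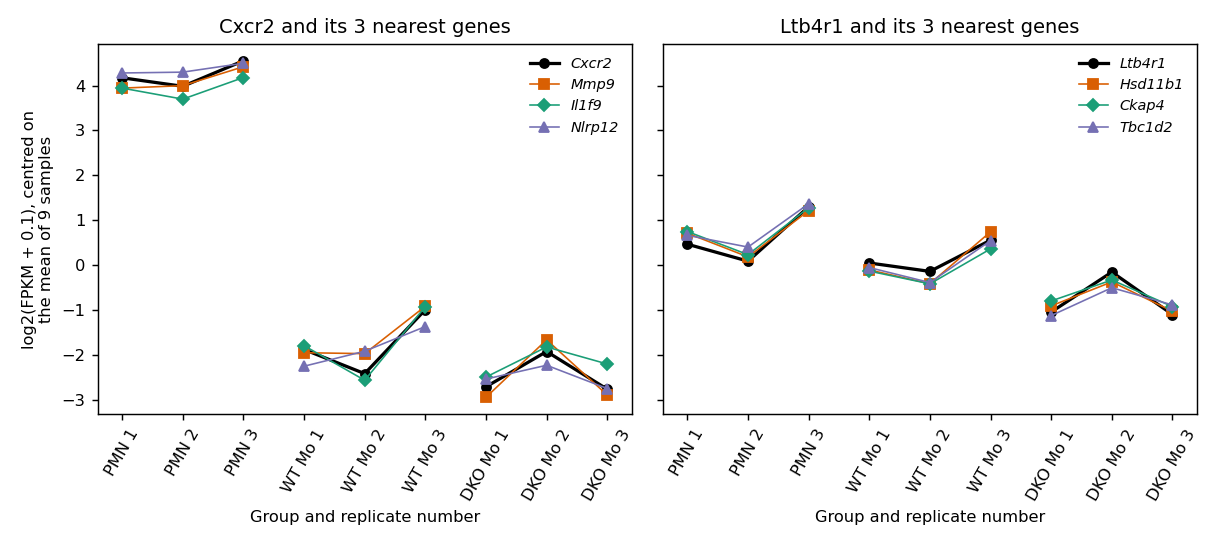
Log2(FPKM + 0.1), centred on the mean of the 9 samples, for Cxcr2 (left) and Ltb4r1 (right) with the 3 genes of smallest root mean square difference; lines join the replicates of a group only to guide the eye. Cxcr2 and its neighbours drop by about 6 log2 units from PMN-MDSCs to WT Mo-MDSCs, whereas the samples of Ltb4r1 and of its neighbours overlap between PMN-MDSCs and WT Mo-MDSCs.

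Fpr1 lay nearest to Nek6 (0.140), Ddx60 (0.151) and Rnf11 (0.157). The nearest genes of Fpr2 were less alike, namely Gm16894 (0.359), Med12l (0.366) and Rgs3 (0.379). Gm16894 and Med12l had means under 2 FPKM in PMN-MDSCs and under 1 FPKM in both Mo-MDSC groups, where the added 0.1 FPKM again weighs more. Ltb4r1 was closest to Hsd11b1 (0.177), which encodes an enzyme that regenerates active glucocorticoid, Ckap4 (0.203) and Tbc1d2 (0.208). Ptafr was closest to the chemokine gene Ccl4 (0.271), Iqsec1 (0.273) and Ksr1 (0.276). All these genes share the 9 libraries with the receptors, so the values are given as a description.

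Among 20 other chemokine receptors, 15 were abundant enough to be tested between the subsets, and 5 were lower and 3 higher in WT Mo-MDSCs, with a median log2 fold change of -0.32. In that fit 20.6% of all genes were called lower and 18.5% higher. With equal totals, where the median of all genes was 0.449, 1 of the 15 receptors was lower and 3 higher. With replicates blocked by number 9 were lower and 3 higher. The shares of all genes in these other settings are not given here. Cxcr1, which shares ligands with Cxcr2, was at 24.4, 18.5 and 39.2 FPKM in PMN-MDSCs and at 0.101, 0 and 0.340 FPKM in WT Mo-MDSCs (log2 fold change -6.98, adjusted p = 0.000104). The receptors of monocytes went the opposite way. Ccr2 was at 2.36, 2.51 and 2.38 FPKM in PMN-MDSCs and at 362, 281 and 336 FPKM in WT Mo-MDSCs, and Cx3cr1 rose by 4.01 on the log2 scale. In DKO against WT Mo-MDSCs 0 of 14 tested receptors were called by limma, 1 with equal totals, and 4 met the study's thresholds, 3 lower and 1 higher. Ccr2, the most abundant, was at 178, 202 and 159.9 FPKM in DKO cells (log2 fold change -0.86, adjusted p = 0.0626), and Ccr3, the next most abundant, at 171, 126 and 102 FPKM against 121, 106 and 91.2 FPKM in WT cells (0.30, adjusted p = 0.485).

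Of 13 other chemoattractant receptors in the table, 9 were tested, and 3 were lower and 5 higher in WT Mo-MDSCs (median log2 fold change 0.52). C5ar2 (Gpr77 in the table), the second receptor for C5a, was lower, as was C5ar1, at 29.4, 32.6 and 33.5 FPKM in PMN-MDSCs and 5.55, 6.51 and 5.43 FPKM in WT Mo-MDSCs (-2.43, adjusted p = 1.1e-05). S1pr4, a receptor for sphingosine 1-phosphate, was also lower (-1.05, adjusted p = 0.00406). Cysltr1, the receptor for cysteinyl leukotrienes, rose by 3.74 and C3ar1, for the complement fragment C3a, by 1.77 on the log2 scale. No gene of this list was called in DKO against WT Mo-MDSCs, 1 was lower and 1 higher by the study's thresholds, and the 2 most abundant, Gpr35 and Cmklr1, had log2 fold changes of -0.086 and 0.49 (adjusted p = 0.616 and 0.160).

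Downstream of the receptors, of 17 genes of Gi signalling to motility, 11 were lower and none higher in WT Mo-MDSCs, with a median log2 fold change of -0.46 and no value below -1.47. This one-sided count depended on the scaling, since 5 were lower and 4 higher with equal totals (median -0.014, against 0.449 over all genes) and 8 lower and 1 higher with quantile normalization (median -0.30). With replicates blocked by number, on the values as deposited, 14 were lower and none higher. Rac2, the Rac of blood cells, was at 562, 514 and 722 FPKM in PMN-MDSCs and 202, 190.5 and 256 FPKM in WT Mo-MDSCs (-1.47, adjusted p = 0.000555). Gnai2, the main Gi subunit of leukocytes, fell by 0.82, Gnai3 by 0.90 and Pik3r5, a subunit of the G-protein-activated phosphoinositide 3-kinase, by 0.88 on the log2 scale. None of the 17 was called in DKO cells and 1 was lower by the study's thresholds, while 16 had values below 0 (median -0.19, and -0.030 with equal totals). The most abundant were Gnai2 (-0.28, adjusted p = 0.307) and Cdc42.

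Among 12 genes that switch receptors off, 6 were lower and 3 higher in WT Mo-MDSCs (median -0.47), but 3 lower and 4 higher with equal totals and 2 lower and 3 higher with quantile normalization. Blocking replicates by number gave 7 lower and 5 higher. Grk3 (Adrbk2 in the table), a receptor kinase, was higher, at 20.8, 20.6 and 15.5 FPKM in PMN-MDSCs against 65.7, 59.6 and 61.9 FPKM in WT Mo-MDSCs (1.72, adjusted p = 7.9e-05). Rgs14 fell by 0.95 and Rgs2 by 0.79, both of which shorten G-protein signals, and the arrestin gene Arrb2 fell by 0.77 on the log2 scale. In DKO cells none was called and 3 were lower by the study's thresholds (median -0.14), and the 2 most abundant, Grk2 (Adrbk1 in the table) and Arrb2, had log2 fold changes of -0.037 and -0.27.

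For the ligands and the enzymes that make lipid ligands, 12 of 18 genes were tested between the subsets, and 6 were lower and 1 higher in WT Mo-MDSCs (median -0.89), or 6 lower and 3 higher with equal totals. Quantile normalization gave 5 lower and 2 higher, and blocking replicates by number 8 lower and 2 higher. Ccl6, a ligand of CCR1, was at 728, 757 and 839.7 FPKM in PMN-MDSCs and 267, 218 and 241 FPKM in WT Mo-MDSCs (-1.68, adjusted p = 4.8e-05), whereas Ccl9, another CCR1 ligand, rose by 4.72 on the log2 scale. Cxcl2, a ligand of CXCR2, was at 6.77, 3.13 and 5.32 FPKM in PMN-MDSCs and at 0.316, 0 and 0.356 FPKM in WT Mo-MDSCs. Alox5, the first enzyme of leukotriene synthesis, was at 89.7, 93.0 and 129.98 FPKM in PMN-MDSCs and 13.4, 10.3 and 26.3 FPKM in WT Mo-MDSCs (-2.73, adjusted p = 0.000855). In DKO against WT Mo-MDSCs 0 of 11 genes were called, and 5 were lower by the study's thresholds (median -0.23). The most abundant were Alox5ap, which presents the substrate to ALOX5, with 496, 509.9 and 614 FPKM in WT and 312, 461 and 304 FPKM in DKO cells (-0.61, adjusted p = 0.208), and Anxa1, which encodes a protein ligand of FPR2, with 429, 255 and 674 FPKM against 205, 248 and 135 FPKM (-1.14, adjusted p = 0.228).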

How the data were processed

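RNA of 9 samples of splenic MDSCs was sequenced as stranded mRNA libraries. The authors mapped single-end reads to mm10 with TopHat2 2.0.13, Bowtie2 2.2.3 and SAMtools 0.1.19 and deposited FPKM values from Cuffnorm 2.2.1, per the submitters' processing notes; the scaling option and the annotation are not given in the sources used here. FPKM values are not counts, so no count model was used and the depth in reads is unknown.

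Values were transformed to log2(FPKM + 0.1), and limma 3.58.1 was fitted to genes that reached 1 FPKM in 3 or more of 6 samples (eBayes with a trend, no covariates) in R 4.3.3. The median SE was 0.118 for the subsets and 0.122 for the genotypes. Exact permutation tests, two-sided, enumerated all divisions of 6 samples and did not use the replicate numbers as pairs. Tables were made with Python 3.11.15, pandas 2.3.3, numpy 2.4.6 and scipy 1.17.1. Both fits were tested on simulated data. Positions are from GENCODE and upstream sequences from RefSeq (GRCm38.p6), where all 8 receptors were matched.

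The receptors, the other gene lists and the markers were chosen with earlier results of these data known. From each other list at most 4 called genes with the largest change were named per comparison, or the 2 most abundant where fewer than 2 were called, with at most 3 markers per cell type, the deleted genes and the 3 nearest genes per receptor; 1 gene that this rule names is not reported here.

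Groups and replicate numbers came from the sample titles. For WT Mo-MDSCs against PMN-MDSCs, deviations from the group means over 11491 genes correlated at 0.2945, 0.4828 and 0.2 between samples of the same replicate number and at most 0.0499 between samples of different numbers, so the numbers were taken to pair these samples. In the labels, the replicates numbered 1 carry lower library numbers than the others. The alternatives were pseudocounts of 0.01 and 1 FPKM, a floor of 0.1 FPKM, other filters, all samples in 1 fit, no variance moderation, equal totals, quantile normalization, the replicate block, replicates 2 and 3 only, the study's thresholds and leaving out each sample.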

Additional observations from a re-analysis of the deposited data

How the results depend on the processing

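In WT Mo-MDSCs against PMN-MDSCs 7 of the 8 receptors were called under 18 of 19 alternatives, and 8 under the replicate block, which added Ltb4r1 and changed the call of no other receptor. The block called more genes of several other lists as well. Leaving out 1 sample gave 7 throughout, with log2 fold changes of -6.39 to -5.68 for Cxcr2 and -0.729 to -0.123 for Ltb4r1. Equal totals moved the median of all genes from 0.0099 to 0.449 in this comparison and from -0.018 to 0.138 in the other. In DKO against WT Mo-MDSCs 0 receptors were called under 18 of 19 alternatives, leave-one-out fits and replicates 2 and 3 alone included, and 4 by the study's thresholds, because those are unadjusted. The sign of C5ar1 turned, from -0.015 to log2 fold changes of 0.0014 with quantile normalization, 0.141 with equal totals, 0.0825 with replicates 2 and 3 only, 0.194 without WT Mo-MDSC replicate 3 (and without the third PMN-MDSC and WT Mo-MDSC samples, an alternative chosen after seeing the data) and 0.193 without DKO replicate 1, while its lowest value without 1 sample was -0.137. Cxcr4 turned to 0.0611 with equal totals. Leaving out 1 sample gave -1.23 to -0.721 for Ltb4r1, 0.559 to 1.04 for Fpr2, 0.536 to 0.892 for Ptafr and -1.03 to -0.319 for Cxcr2, and log2 ratio differences of -0.917 to -0.274 for Cxcr2 to Cxcr4 and -0.895 to -0.380 for Fpr1 to Fpr2. For this comparison the same-numbered samples correlated at 0.3477, 0.2262 and -0.07, not all positive, and DKO replicate 3 did not correlate best with its own number. The replicate block left its count at 0. With 3 samples a group the exact tests cannot go below 0.1.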

Other observations

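The values of Fpr2, Ptafr and Fpr1 were higher in DKO than in WT Mo-MDSCs, with groups that overlapped. So were those of Mmp8, a collagenase of neutrophil granules, while the other 8 neutrophil markers had lower ones. Mmp8 was chosen after its values were seen. It was at 42.3, 50.2 and 55.2 FPKM in WT Mo-MDSCs and at 76.0, 112 and 71.7 FPKM in DKO Mo-MDSCs, without overlap (log2 fold change 0.79, adjusted p = 0.156 by limma). Of all genes tested 7.96% were higher in DKO cells without overlap. In PMN-MDSCs Mmp8 was at 366.5, 242 and 486 FPKM.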
